A study of Nitraria sibirica with 9 samples.

Results

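In leaves of Nitraria sibirica, 43 assembled transcript clusters had almost no reads without added salt and were read in every library from plants given NaCl. They are 43 of the 126059 clusters measured. The clusters were chosen by their read counts in these same libraries. A cluster was kept if its counts summed to at most 3 over the 3 libraries at 0 mM NaCl and reached at least 10 in each of the 6 libraries at 100 or 400 mM. It also had to be outside the deposited table of the whole series, which holds 31628 clusters with an FPKM (reads scaled to cluster length and library size) of at least 0.31 in every library. A limit of 200 clusters by total count was part of the choice and removed none. The low level at 0 mM and the presence at both salt levels are therefore conditions of membership, given below as a description.

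Nitraria sibirica is a shrub of saline and alkaline soils. Its seedlings grew in a greenhouse and received 0, 100 or 400 mM NaCl, raised step by step so that all levels were reached together, for 3 days. Leaf RNA was sequenced in 3 libraries per level. The labels name no genotype, plant age or pooling, and they number the replicates without saying whether these are separate plants, so each p-value measures no more than the spread from library to library, which may be technical.

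Plants that live on salt keep sodium out of the cytoplasm by pumping it out of the cell or into the vacuole, and balance it with compatible solutes such as proline. They also raise enzymes that remove reactive oxygen and protective proteins of the late embryogenesis abundant family, partly under the hormone abscisic acid. In an assembly made without a genome, a cluster groups transcripts that share reads, so alleles, splice forms and members of a gene family can stand in separate clusters. The files used here give no gene name or protein description for any cluster. None of the 43 can therefore be placed in a pathway, and the leaf label could not be checked against marker genes.

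Total counts per library ran from 16502728 to 23933039, and the shallowest library was replicate 1 at 0 mM. At those depths a summed count of 3 over the 0 mM libraries corresponds to 0.0502 CPM (counts scaled to a common library total, after a TMM adjustment of library sizes for composition). Intervals and floors given here cover counting error at 0 mM only. The same-numbered libraries of different levels deviated from their group means with correlations of -0.01 to 0.22 across clusters, and the highest was between replicate 1 at 100 mM and replicate 1 at 400 mM. Less RNA per cell and fewer cells of a type cannot be told apart in whole-leaf RNA.

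Low counts at 0 mM were common, and few such clusters were read in every salt library. Of the 126059 clusters, 29213 summed to at most 3 counts over the 0 mM libraries, including 4471 with 0 counts in all 9 libraries. Of those 29213, 25052 reached 10 counts in no salt library and 2597 in a single one. The number fell to 868 with 2 salt libraries, 376 with 3, 178 with 4 and 99 with 5, and 43 (0.147%) reached 10 counts in all 6. Taking each level alone, 163 reached the minimum in all 3 libraries at 100 mM and 143 in all 3 at 400 mM, so 120 met it fully at 100 mM but not at 400 mM and 100 the other way round. Among the 99 clusters short in a single salt library, the missing library was replicate 1 at 400 mM in 31 and replicate 3 at 400 mM in 4, with 15 to 17 for each of the others. The reverse condition, at least 10 counts in each 0 mM library and at most 3 summed over the 6 salt libraries, was met by 27 clusters.

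**Figure D1:**
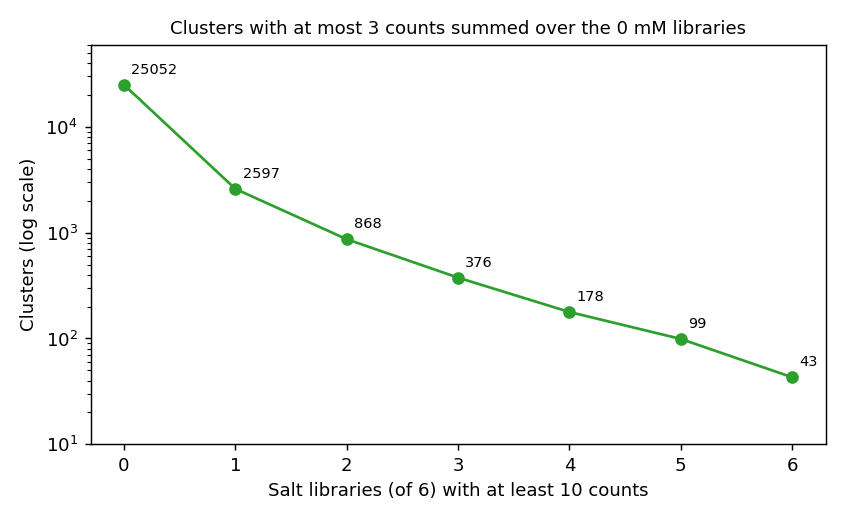
Clusters with at most 3 counts summed over the 0 mM libraries (vertical axis, log scale), by the number of the 6 salt libraries in which they had at least 10 counts (horizontal axis). The line falls from 25052 clusters with no such library to 43 with all 6.

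Other groupings of 3 libraries gave some of these patterns too. The 9 libraries hold 84 sets of 3, and the same condition (low in the 3, at least 10 counts in each of the other 6) was counted in each. The 0 mM set gave 43 clusters, the highest count of the 84. The other 83 sets gave between 3 and 39, with a median of 10. The next highest count, 39, belonged to the 3 libraries numbered 1, which hold 1 library of each salt level. A further 34 clusters were low in replicates 2 and 3 at 100 mM with replicate 2 at 400 mM, and 27 in replicates 2 and 3 at 100 mM with replicate 3 at 400 mM. The other whole salt levels gave 23 clusters low at 100 mM and 5 low at 400 mM. Levels were alike as well. The median over clusters of the mean count in the 6 high libraries was 58.1 for the 0 mM set, 61.2 for the libraries numbered 1 and 41.7 for the 100 mM set. So a set that mixes all 3 salt levels gave nearly as many clusters, at a similar level, as the 0 mM set. The sets share libraries and clusters, and no p is given for this count.

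**Figure D2:**
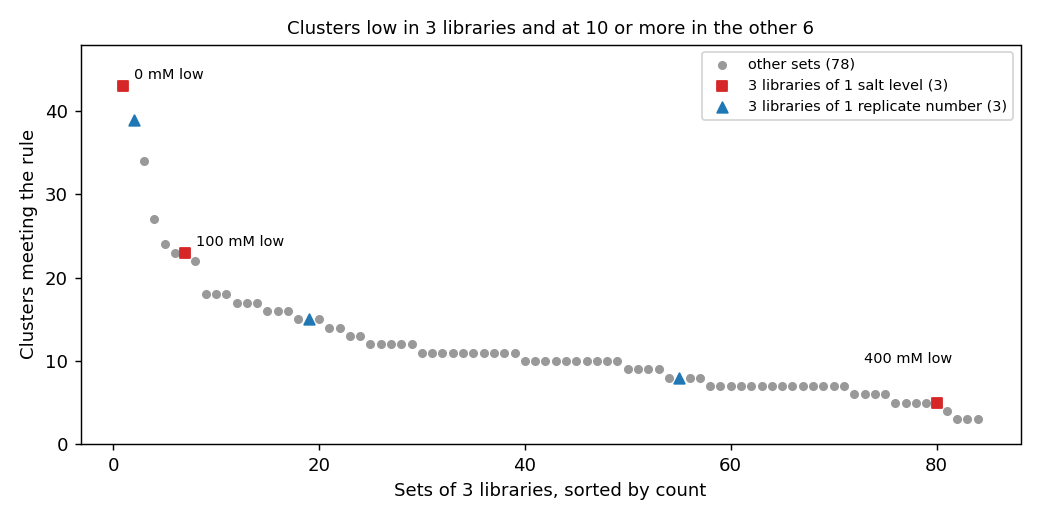
Number of clusters that were low in 3 libraries and at 10 or more counts in the other 6 (vertical axis) for each of the 84 sets of 3 libraries, sorted by count (horizontal axis). Red squares are the 3 sets made of 1 salt level, blue triangles the 3 sets made of 1 replicate number and grey points the other 78. The 0 mM set stands at 43, the libraries numbered 1 at 39, and the 400 mM set at 5.

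The counts at 0 mM were at or near 0. In 32 of the 43 clusters all 3 libraries at 0 mM held 0, and in the other 11 the sum ran from 0.01 to 2.58 estimated counts with a median of 1.06. Replicate 1 held a count above 0 in 7 of them, replicate 2 in 1 and replicate 3 in 6. At their mean CPM in the salt libraries, the 43 clusters would have given between 47.1 and 2498 counts over the 0 mM libraries, with a median of 175. These expected counts rest on values that the choice used, and a limit from depth at 0 mM was not tested.

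Against a floor of 3 counts over the 0 mM group, 33 clusters, whose summed count there rounds to 0, were at least 15.7-fold to at least 833-fold higher in their mean over the 6 salt libraries, with a median bound of 65.9-fold. The other 10 had 1 to 3 rounded counts at 0 mM, and their ratios ran from 16.7 (95% exact Poisson interval 5.72 to 81.0) to 513 (92.1 to 20272). The intervals are wide because they rest on 1 to 3 counts at 0 mM. Intervals and bounds alike take the salt mean as exact, so the spread between salt libraries is not in them.

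**Figure D3:**
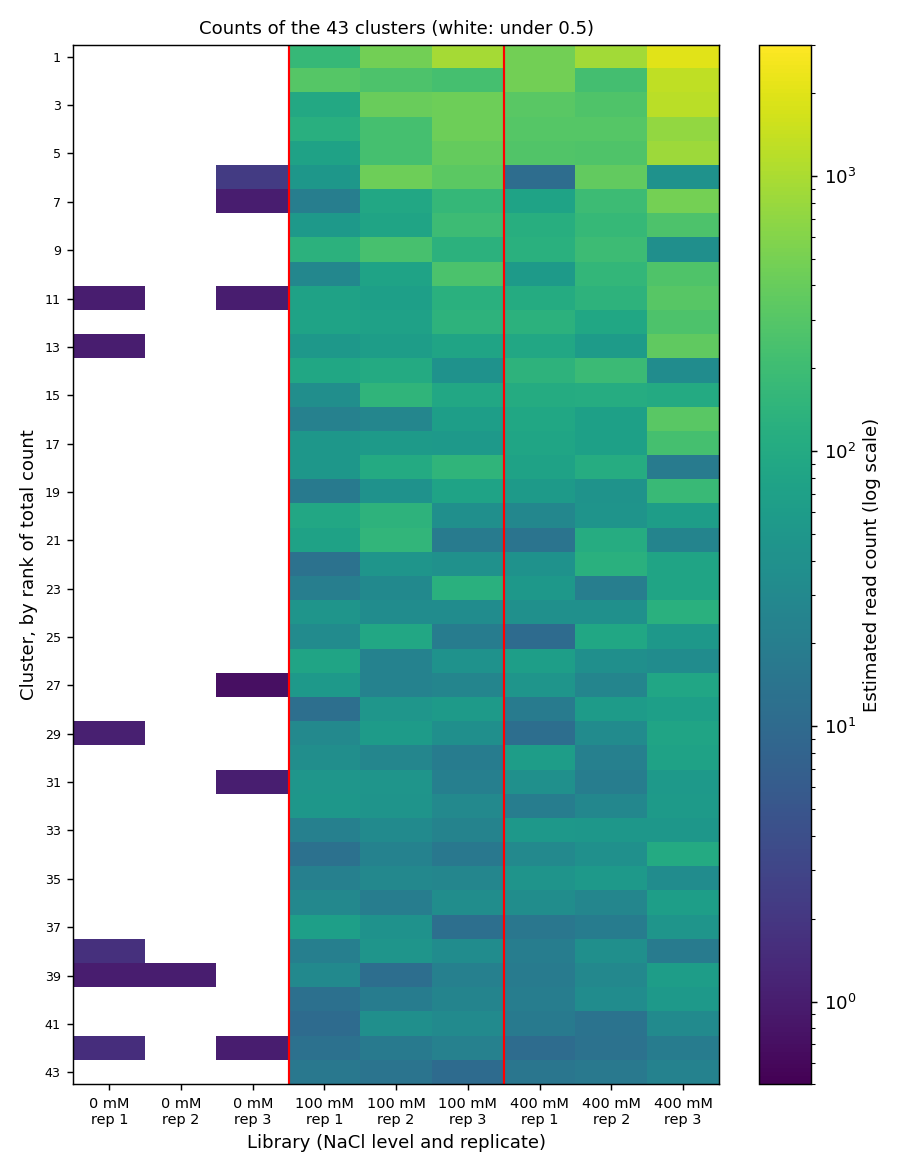
Estimated read counts (colour, log scale) of the 43 clusters, 1 row each ordered by total count, in the 9 libraries (columns), with red lines between the salt levels and white for counts under 0.5. The 0 mM columns are white apart from scattered counts of at most 2.24, and the row of rank 1 reaches 2054.79 in replicate 3 at 400 mM.

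Reads were concentrated in a few of the clusters. Total counts over the 9 libraries ran from 96.33 to 5006.64, with a median of 348.3. The cluster with the highest total held 16.1% of the 31054 counts of the whole set, the top 5 held 47.6% and the top 10 held 63.4%. In 7 clusters the total was over 1000, and in 17 at least 1 salt library had under 20 counts.

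The cluster with the highest total, Cluster-23439.82864, had 0 counts in each of the 3 libraries at 0 mM. It had 169.76, 477.56 and 933.36 counts in replicates 1 to 3 at 100 mM, and 472.59, 898.58 and 2054.79 at 400 mM. Replicate 1 was the lowest and replicate 3 the highest at both salt levels, and the ranges of the 2 levels overlapped. Its mean was 31.1 ± 25.9 CPM (SD, n = 3) at 100 mM and 52.5 ± 37.9 CPM at 400 mM. Its mean over the 6 salt libraries was at least 833-fold above the floor at 0 mM.

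The next cluster, Cluster-23439.9687, also had 0 counts in all 3 libraries at 0 mM. It had 302.38, 262 and 230.3 counts at 100 mM, and 473, 224 and 1306 at 400 mM. In CPM the 3 libraries at 100 mM were nearly level, at 14.3 ± 0.63 (SD, n = 3). At 400 mM replicate 3 stood far above the other libraries, for a mean of 30.5 ± 26.2 CPM, and replicate 2 was below all 3 libraries at 100 mM. Its mean over the 6 salt libraries was at least 446-fold above the floor at 0 mM.

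The clusters of ranks 3, 4 and 5 had at most 445.39 counts at 100 mM and were highest in replicate 3 at 400 mM, with 1236.39, 720.7 and 833.31 counts. In all 3 of them replicate 1 at 100 mM was the lowest salt library, with 96.06, 122.96 and 75.61 counts. The cluster of rank 6 went another way. It had 0, 0 and 2.24 counts at 0 mM, 50.15, 441.67 and 340.34 at 100 mM and 11.32, 377.39 and 41.68 at 400 mM. In that cluster replicate 1 at 400 mM was near the minimum of 10 while replicate 2 at the same level was among the highest, a spread of 49.3-fold in CPM over the 6 salt libraries. At the other end, the cluster of rank 43 had 16.36, 14.12 and 10.53 counts at 100 mM and 15.13, 16.64 and 23.55 at 400 mM, within 1.63-fold in CPM.

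Per length, the order of the clusters was different. In the authors' FPKM the mean over the 6 salt libraries ran from 0.485 to 72.3, with a median of 2.96. FPKM was over 10 in 7 clusters, between 1 and 10 in 29 and under 1 in 7. The 4 highest by FPKM were the clusters of ranks 11, 7, 10 and 29 in total count. The cluster of rank 11 had 52.4 ± 22.7 FPKM (SD, n = 3) at 100 mM and 92.1 ± 52.3 FPKM at 400 mM. The cluster of rank 7 had 42.4 ± 34.8 and 94.7 ± 75.9 FPKM. The cluster of rank 10 had 59.2 ± 61.5 and 65.9 ± 42.8 FPKM, and the cluster of rank 29 had 65.5 ± 29.1 and 54.0 ± 44.8 FPKM. Cluster-23439.82864 came next with 32.4 ± 25.9 and 57.5 ± 38.9 FPKM. Neighbours among these 5 differed by less than their SDs, except for the cluster of rank 29 and Cluster-23439.82864 at 100 mM. There the difference was larger than either SD.

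Those 4 clusters were very short by the length that count and FPKM together imply. The implied lengths were 85.5, 114, 109 and 32.7 bases, against 857 bases for Cluster-23439.82864. In clusters with a deposited length, that length exceeded the implied one by a median of 246 bases (5th to 95th percentile, 241 to 251). The implied lengths should therefore not be read as full lengths of the assembled clusters, which the deposited series table does not give for the 43. An FPKM computed on such a short length is raised by each read much more than in a longer cluster. The high FPKM of the 4 thus rests on a small implied length, which is not the number of bases in the cluster. Over all 43 the implied length ran from 32.7 to 4857 bases with a median of 1444. It was under 150 bases in 5 and over 2000 bases in 14.

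For a comparison, the 3145 other clusters that reached 10 counts in all 6 salt libraries and were outside the deposited series table were used. Their median implied length was 2534 bases, only 0.223% were under 150 bases and 67.8% were over 2000. The median over all clusters with an implied length was 736 bases, with 13.0% under 150. Of the 43, 11.6% were under 150 and 32.6% over 2000. The 3145 were taken for absence from a table set by FPKM, which is scaled to length, so the 30557 other clusters at the salt minimum inside or outside that table were set beside them too. Their median implied length was 1493 bases, with 1.84% under 150 and 32.9% over 2000. The 43 were thus shorter at the median than the 3145 but close to the 30557, and held a larger share under 150 bases than either. Their median FPKM of 2.96 stood between 0.887 in the 3145 and 5.97 in the 30557, and their median CPM of 2.93 between 2.29 and 8.0.

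The names give a further feature that the choice did not use. Of the 43, 41 (95.3%) share the number 23439 before the point, the number carried by 99.4% of the 3145 clusters and 78.2% of all clusters. The other members are Cluster-780.0, the sole cluster of its number, and the cluster of rank 43, whose number holds 2 clusters. A single pair, ranks 12 and 35, had adjacent numbers after the point. Estimated counts that were not whole, as when a read is shared out between clusters, made up 82.9% of the members' salt values, against 92.7% in the 3145 and 79.9% in the 30557. In 5 clusters all 6 salt counts were whole, and in 34 none was.

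Within the salt groups, the 43 varied widely between replicates. The median coefficient of variation in CPM was 0.497 at 100 mM and 0.595 at 400 mM, against 0.429 and 0.463 in the 3145 and 0.254 and 0.268 in the 30557. The ratio of the highest to the lowest of the 6 salt libraries had a median of 5.65 in the 43, of 4.17 in the 3145 and of 2.37 in the 30557. It was over 10 in 11 of the 43 (25.6%), against 12.3% of the 3145, and under 3 in 8.

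The same libraries were high and low in many of the clusters. Replicate 3 at 400 mM was the highest salt library in 22 of the 43 (51.2%), against 17.8% of the 3145 and 14.4% of the 30557. Replicate 1 at 100 mM was the lowest in 22 (51.2%), against 19.3% and 20.7%. No cluster had its highest value in replicate 1 at 400 mM. Summed over the 43, replicates 1 to 3 reached 107, 241 and 323 CPM at 100 mM and 172, 230 and 481 CPM at 400 mM. The group means of this sum were 223 ± 109 CPM (SD, n = 3) and 294 ± 164 CPM, and the levels overlapped. Leaving out the 5 clusters with the highest totals, the sums were 72.1, 150 and 169 CPM at 100 mM and 89.4, 138 and 198 CPM at 400 mM. At 0 mM the summed values were 0.389, 0.0485 and 0.343 CPM.

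**Figure D4:**
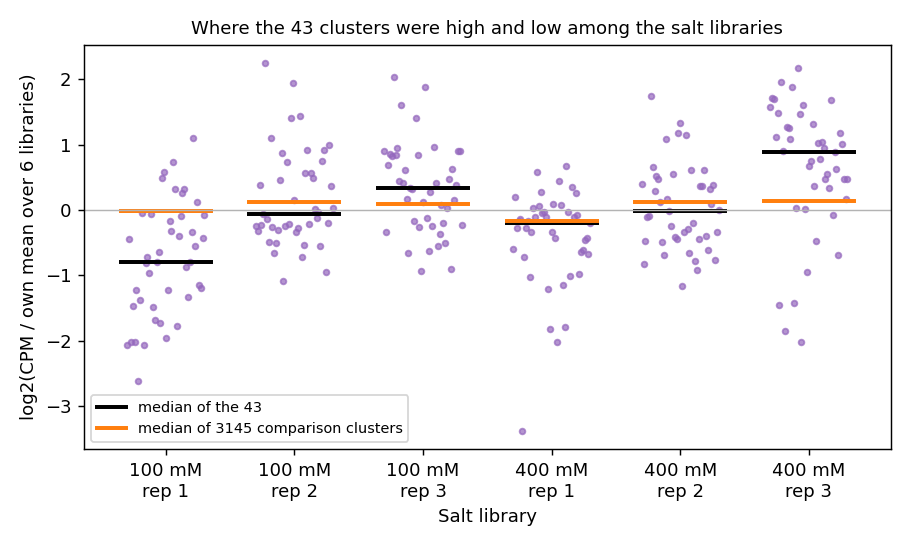
CPM of each of the 43 clusters in each salt library divided by its own mean over the 6 (vertical axis, log2; points), with the median of the 43 in black and of the 3145 comparison clusters in orange. The medians of the 43 stand at -0.79 in replicate 1 at 100 mM and 0.88 in replicate 3 at 400 mM, where the comparison clusters stand at -0.01 and 0.13.

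Some pairs of clusters kept a narrow ratio over the salt libraries. For each of the 903 pairs, the ratio of the CPM values was taken in each salt library, and its highest value divided by its lowest. The median of this range was 7.28-fold, and in 19 pairs (2.10%) it was under 2-fold. Among the 3145 comparison clusters the median was 7.97-fold and 1.09% of pairs were under 2-fold. The tightest pair was ranks 12 and 36, whose ratio stayed within 1.49-fold. Ranks 5 and 19 stayed within 1.54-fold, ranks 4 and 8 within 1.59-fold and ranks 33 and 35 within 1.59-fold. A ratio also stays narrow where both clusters vary little. Over the salt libraries, ranks 33 and 35 themselves varied 2.37- and 2.64-fold in CPM, and ranks 12 and 36 3.49- and 2.70-fold. Ranks 4 and 8 varied 6.01- and 4.97-fold, and ranks 5 and 19 11.3- and 10.0-fold. These pairs share the 6 libraries and are given as a description, with no inference on function.

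The step from 100 to 400 mM was not itself a condition, but both levels entered the choice. The minimum in every salt library left out the 120 clusters that met it fully at 100 mM alone and the 100 at 400 mM alone, so the counts below hold for clusters chosen for presence at both levels. No cluster of the 43 changed between the 2 levels at an adjusted p under 0.05 in edgeR's quasi-likelihood test, where 0% of the 56832 clusters tested did. At an unadjusted p under 0.05 the count was again 0 of 43, against 3.63% of all tested clusters higher and 3.39% lower. DESeq2 called 0 of the 43 at an adjusted p under 0.05, against 1.96% of all clusters it adjusted, and 1 of 43 at an unadjusted p under 0.05, where 4338 of 120105 clusters were higher and 4118 lower. All 43 passed the filter on low counts, and the filter could be passed through the salt libraries alone.

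The fitted log2 change from 100 to 400 mM had a median of 0.40 over the 43 and ran from -1.28 to 1.71. It was above 0 in 26 and below 0 in 17, with 6 more than 2-fold up and 2 more than 2-fold down. Over all tested clusters the median was 0.03 and 52.0% were above 0, and over the 3145 the median was -0.01. The direction of the members' median rested on replicate 3 at 400 mM. Without it the median was -0.12, with 15 of the 43 above 0. Without replicate 3 at 100 mM it was 0.66, and without replicate 1 at 100 mM it was 0.18.

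In 2 of the 43 clusters all 3 libraries at 400 mM stood above all 3 at 100 mM in CPM, and in 0 all stood below. Over all tested clusters 7.46% were separated upward and 6.96% downward. Cluster-780.0 had 0.569, 1.32 and 1.02 CPM at 100 mM and 1.33, 1.86 and 4.61 CPM at 400 mM. The separation was narrow, since replicate 1 at 400 mM was barely above replicate 2 at 100 mM. Its means were 0.968 ± 0.378 and 2.60 ± 1.76 CPM (SD, n = 3), with a log2 change of 1.43 (SE 0.69, edgeR adjusted p = 0.755). Without replicate 3 at 400 mM the log2 change was 0.74.

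Cluster-23439.49105 had 0.977, 1.81 and 1.56 CPM at 100 mM and 2.28, 2.31 and 2.28 CPM at 400 mM. The 400 mM libraries were nearly level while those at 100 mM were spread. Its means were 1.45 ± 0.43 and 2.29 ± 0.02 CPM (SD, n = 3), with a log2 change of 0.65 (SE 0.49, edgeR adjusted p = 0.891). Without replicate 1 at 100 mM the log2 change was 0.43. Of the clusters with the highest totals, Cluster-23439.82864 had a log2 change of 0.75 (SE 0.83, edgeR adjusted p = 0.952) and Cluster-23439.9687 of 1.10 (SE 0.62, edgeR adjusted p = 0.804). Without replicate 3 at 400 mM these were 0.03 and 0.15. The change of Cluster-23439.82864 also moved to 0.29 without replicate 1 at 100 mM, to 1.60 without replicate 3 at 100 mM and to 1.14 without replicate 1 at 400 mM.

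**Figure D5:**
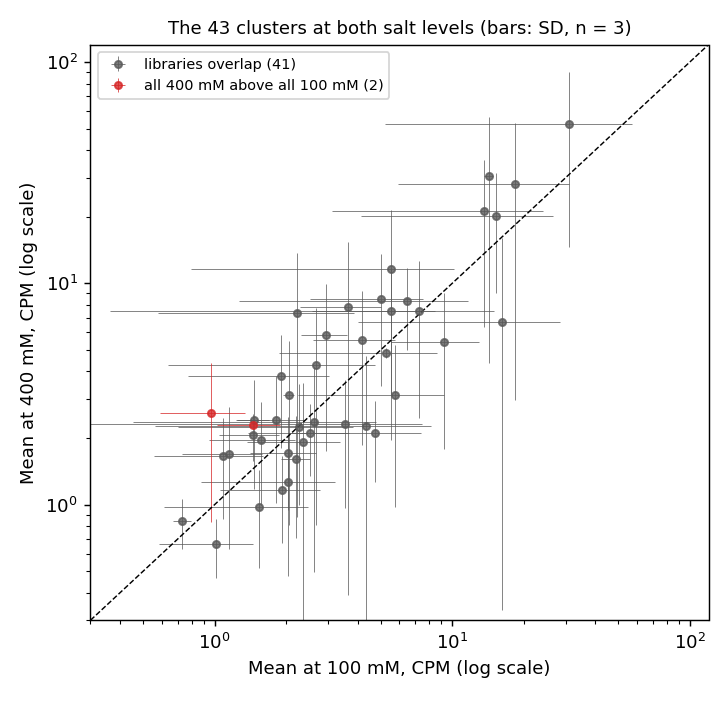
Mean CPM at 100 mM (horizontal axis) and at 400 mM (vertical axis) of the 43 clusters, both on log scales, with SD bars (n = 3 libraries). Where the SD was nearly as large as the mean or larger, the lower bar was shortened to stay above 0. Such a bar does not show the full SD. Bars that reach below the plot end at its edge. The dashed line marks equal means, and 26 clusters lie above it. The 2 red points are the clusters whose libraries at the 2 levels do not overlap.

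The comparisons with 0 mM used the values that chose the clusters, share the 0 mM libraries and are given as a description. At 100 mM against 0 mM, edgeR's adjusted p was under 0.05 for 23 of the 43, all higher, against 0.424% of all tested clusters. All 23 calls were lost on leaving out any 1 library at 0 or 100 mM, or replicate 2 at 400 mM, and those fits called 0 to 5 clusters higher in all. Without replicate 3 at 400 mM 9 of the 43 were called, where 138 of all 62687 tested clusters were called higher. Without replicate 1 at 400 mM 20 were called, where 574 of 62330 were. At 400 mM against 0 mM it was under 0.05 for 0 of the 43 and for 0% of all tested clusters. At an unadjusted p under 0.05 all 43 were higher at 400 mM, against 8.13% of tested clusters, and DESeq2 gave an adjusted p under 0.05 for all 43, against 3.89% of those it adjusted. The 23 calls at 100 mM and the 0 at 400 mM do not by themselves show a difference between the levels, whose direct test is given above. That test in edgeR called 0% of all tested clusters, so it does not show that the levels are equal either.

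The limits of the choice cut through a continuous range of values. Just above the limit at 0 mM were clusters summing to 3.64, 3.73 and 4 counts there, with 204.58, 13055 and 1405.97 counts in all over the salt libraries. The middle one had between 1206.6 and 3457.26 counts in each salt library, more than any member had in the same library. In all, 18 clusters summed to over 3 and up to 6 counts at 0 mM. Just below the salt minimum, the lowest salt counts were 9.26, 9, 9, 9 and 8.89, and 46 clusters low at 0 mM had their lowest salt count between 5 and 10.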

How the data were processed

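Leaf RNA-seq libraries at 0, 100 and 400 mM NaCl (3 each) were grouped by their labels. Each deposited library table gives an estimated count of reads per cluster, not normalized by the authors, and the authors' FPKM, per the file headers. The deposited series table gives FPKM and cluster lengths. The submitters' processing notes list Bowtie2 2.0.6 with TopHat2 2.0.9 but give neither a role. Assembler, counting tool and strand setting: not given in the sources used here. Reads shared between similar clusters may be divided among them.

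The condition on counts was applied to the counts as deposited. For the tests, counts were rounded to whole numbers and fitted with edgeR 4.0.16 (R 4.3.3; filterByExpr, TMM, quasi-likelihood, all 9 libraries, 3 groups, Benjamini-Hochberg adjustment over 56832 clusters). DESeq2 1.42.0 was an alternative. Only the edgeR fit was run on simulated data. That run is not used here as evidence for the calls of either tool. CPM is the deposited count divided by the TMM-scaled total. Implied length is count over FPKM and library total. Total counts per library ran from 16502728 to 23933039. The members, lists and tests were chosen with earlier results of these data known. Named clusters are the 2 members with the highest totals and those whose libraries at 100 and 400 mM do not overlap. The others go by their rank in total count. Other thresholds, scalings, filters, fits and left-out libraries were tried as alternatives.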

Additional observations from a re-analysis of the deposited data

How the results depend on the processing

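With counts of at least 20 in each salt library the condition gave 26 clusters in place of 43, and with at least 5 it gave 89. Leaving out 1 library at a time gave 47 to 121 clusters, lowest without replicate 3 at 400 mM (47) and highest without replicate 3 at 0 mM (121). Without replicate 1 of both salt levels, an alternative chosen after seeing the data, the condition gave 117. The limits were not changed, so leaving out libraries could only add clusters, and all 43 were kept each time. These counts are therefore no check on the 43. Requiring 0 counts at 0 mM or scaling to the shallowest library gave 32 each, allowing 6 counts at 0 mM gave 61, and setting the limits on TMM-scaled libraries, also added later, gave 42, of which 40 were among the 43. For 100 mM against 0 mM the 23 calls among the members (241 higher over all 56832 tested) became 15 with the replicate block (549 of 56832), 43 in DESeq2 (3707 of 75448), 13 with library size only (105 of 56832), 4 of 42 tested with only the groups compared (311 of 50421) and 14 without replicate 1 of both salt levels (750 of 60176). Leaving out 1 library gave 0 to 20, with 0 in all but the cases of replicates 1 and 3 at 400 mM. Those cases gave 20 (574 higher of 62330) and 9 (138 of 62687), and the other fits called 0 to 5 clusters higher in all. For 400 mM against 0 mM the 0 calls (0 over all tested) became 4 with the replicate block (82 higher of 56832). They became 43 in DESeq2 (2936 of 75448) and 9 without replicate 1 of both salt levels (391 of 60176). Leaving out 1 library gave 0 to 1, with the 1 call in the fit without replicate 1 at 400 mM (109 higher of 62330). For 400 mM against 100 mM every alternative run gave 0 calls, the replicate block included (3 higher at an unadjusted p under 0.05, 1985 of 56832 over all), and the median log2 change ran from -0.12 to 0.66 leaving out 1 library, reversed to -0.12 without replicate 3 at 400 mM. For the count of clusters, stricter limits could only remove members and looser limits could only add clusters. The cause of the other shifts was not tested. Whether the replicate numbers pair the samples is not settled by these values. Of 9 same-numbered correlations 1 passed 0.1, while 12 of 18 library comparisons were highest with the own number. Depth limits the members of low total, where the minimum of 10 counts leaves wide counting error.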
